A study of Danio rerio with 28 samples.

Results

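Of the 32520 genes in the count table, 9 zebrafish genes were chosen because the genotypes differed in the same direction at all 4 stages measured. Each was lower in the mutant than in wild type. They are sars1, cbr1l, hmgcrb, afmid, cenpo, adprhl2, hpca, dhx30 and suclg2. Of 14732 genes tested, 54 (0.367%) were called lower at all 4 stages: 41 copies of mir430, these 9, and 4 further genes named below. The genotype differences of the 9 chose them, so they are described here without a test. The call used here was an adjusted p under 0.05 in edgeR's quasi-likelihood test at every stage. The threshold behind the choice of the 9, and why it left out the 4 further genes, are not stated. The gene nearest to the limit inside was hpca at Sphere, at an adjusted p of 0.0482, and the nearest outside was pfkfb2a, called at the other 3 stages and at an adjusted p of 0.0508 at 256c, with a log2 fold change there of -2.43.

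The study profiled newly made RNA in whole zebrafish embryos during zygotic genome activation, the period in which transcription of the embryo's genome starts. Wild type embryos were injected with s4UTP, a sulfur-bearing uridine nucleotide that is built into new RNA. The mutant embryos were mir430-/- and were injected with both s4UTP and miR430, which the labels call a rescue. RNA that carried the label was pulled out through biotin and treated with iodoacetamide (IAA), which makes reverse transcription misread the labelled bases. Libraries were stranded and made without selecting poly(A) RNA. The counts are labelled as filtered, but whether only reads with misread bases were kept is not stated. How much unlabelled maternal RNA entered the counts was not tested, so a level is not a measure of new transcription alone. The 8 groups were these 2 genotypes at 256c, 1024c, Oblong and Sphere, with 3 IAA libraries each, and 4 more libraries, 1 for each wild type stage, were left without IAA. All groups thus carried s4UTP, and miR430 was injected into the mutant alone, so the deletion, the injection and the background of the line cannot be told apart. Replicates are labelled biological, but no clutches are named, so a p-value measures the spread between these libraries. Each library came from whole embryos, in which fewer cells of a type and less RNA per cell cannot be told apart.

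The mir430 locus is a dense array of microRNA genes that is among the first loci transcribed in the zebrafish embryo. Its nascent RNA gathers with RNA polymerase II and transcription factors in large nuclear transcription bodies, and per the design text the comparison asks what the loss of the major transcription bodies does during genome activation. None of the 9 genes encodes a microRNA or a transcription factor. Their products work in protein synthesis (sars1), sterol and carbonyl metabolism (hmgcrb, cbr1l), tryptophan breakdown (afmid), the mitochondrial citric acid cycle (suclg2), mitochondrial RNA handling (dhx30), the kinetochore (cenpo), removal of ADP-ribose from proteins (adprhl2) and calcium sensing (hpca).

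The 24 IAA libraries held between 4960211 and 13803137 counts each. Mitochondrial transcripts took most of them, except in replicate 3 of wild type and replicate 2 of the mutant at Sphere, and nuclear genes held between 160889 and 4118874 counts per library. The targeted mir430 genes had 8865 to 213074 counts per library in wild type and 0 to 59 in the mutant. The wild type Sphere libraries stood apart from each other, with nuclear shares of 12.9%, 40.1% and 62.6% of counts in replicates 1, 2 and 3. Shares were uneven elsewhere too. At 256c they were 2.56%, 1.22% and 2.67% in wild type and 2.46%, 7.46% and 5.59% in the mutant. At Oblong wild type replicate 1 had 6.04%, against 12.2% and 13.2% in replicates 2 and 3. The part of these shares in the genotype differences was not tested. Levels below are CPM, the usual library-scaled counts, here with TMM scaling, given in replicate order, with n = 3 libraries per group.

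Summed over the 9 genes, wild type held 3539 counts and the mutant 257. At 256c the sum was 663 counts in wild type and 68 in the mutant, at 1024c 950 and 42, at Oblong 1216 and 80, and at Sphere 710 and 67. On the CPM scale the 9 genes together reached 68.3 ± 3.77, 48.9 ± 7.67, 40.5 ± 18.04 and 15.1 ± 15.8 in wild type from 256c to Sphere, and 3.96 ± 1.19, 2.27 ± 0.906, 2.19 ± 0.803 and 1.05 ± 0.322 in the mutant (mean ± SD, n = 3). The sum was lower in every mutant library than in every wild type library of the same stage. The depth behind single genes was small: a wild type library held between 3 and 102 counts of one of them, and a mutant library between 0 and 17.

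The median log2 fold change of the 9 genes, mutant minus wild type, was -4.25, -4.81, -4.00 and -3.65 from 256c to Sphere. The median over all tested genes was 0.25, 0.16, 0.24 and -0.01 at the same stages. All 9 were called lower at each stage, which is no test since the rule used these contrasts. Of all tested genes 2.87%, 1.57%, 0.923% and 0.706% were called lower. Every mutant library lay below every wild type library for 9 of the 9 genes at 256c, 1024c and Oblong, where this held for 9.99%, 8.02% and 9.54% of tested genes. At Sphere it held for 6 of the 9 genes, against 5.21% of tested genes, and sars1, hmgcrb and suclg2 overlapped there. At 1024c 5 of the 9 were called without mutant replicate 2, and at Oblong 4 without wild type replicate 1 and 3, 4 and 5 without mutant replicates 1, 2 and 3. The calls at Sphere moved most with single libraries: 1 of the 9 genes was called without wild type replicate 1, and 1, 0 and 3 were called without mutant replicates 1, 2 and 3. Only the groups compared in the fit gave 4 calls at 256c and 0 at Sphere. At Sphere 5 of the 9 were called with RLE scaling, 5 with TMM on nuclear genes only and 2 with total-count scaling, and 9 with the replicate block, with no low-count filter and by DESeq2.

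**Figure D1:**
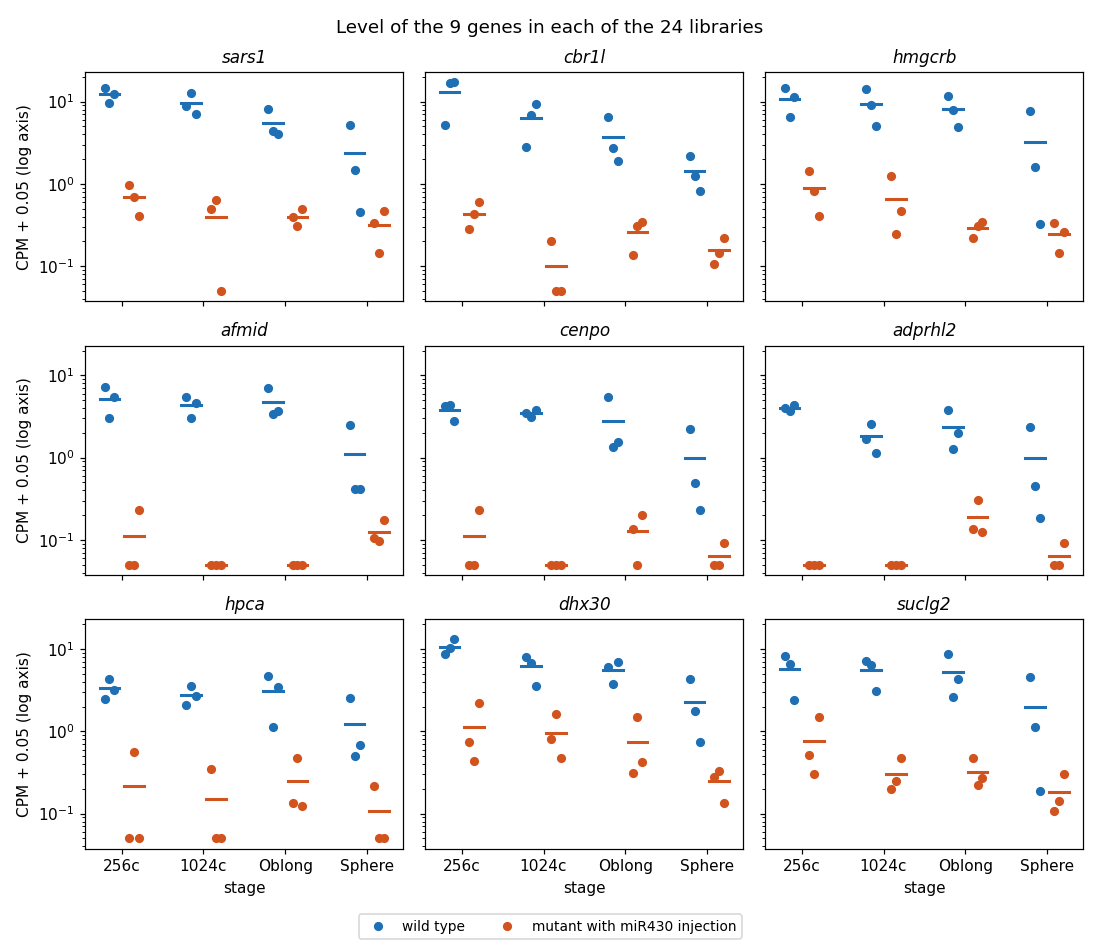
Each panel plots 1 of the 9 genes, with the stage on the x axis and CPM + 0.05 on a log y axis; points are the 24 IAA libraries and bars the means of 3. Blue wild type points lie above orange mutant points of the same stage, except at Sphere, where the lowest wild type library of sars1, hmgcrb and suclg2 falls among or near the mutant ones; points on the 0.05 line are libraries with 0 counts.

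sars1 encodes the cytosolic seryl-tRNA synthetase, which loads serine onto its transfer RNA and in zebrafish is also known to restrain blood vessel growth. Its wild type level was 14.7, 9.47 and 12.4 CPM at 256c, 8.81, 12.6 and 7.01 at 1024c, 7.99, 4.35 and 3.95 at Oblong, then 5.09, 1.41 and 0.410 at Sphere. The mutant libraries gave 0.928, 0.634 and 0.363 CPM at 256c, 0.449, 0.591 and 0 at 1024c, 0.343, 0.257 and 0.445 at Oblong, then 0.281, 0.0939 and 0.418 at Sphere. The genotypes were apart at the first 3 stages, and at Sphere the lowest wild type library, replicate 3, lay below the highest mutant one. The log2 fold change was -4.25 (SE 0.83), -4.81 (SE 0.87), -3.90 (SE 0.80) and -3.03 (SE 0.77) in stage order.

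hmgcrb encodes HMG-CoA reductase, the rate-limiting enzyme of the mevalonate pathway to sterols, whose activity in zebrafish guides migrating germ cells. Wild type libraries held 14.7, 6.53 and 11.3 CPM at 256c, 14.04, 8.99 and 5.04 at 1024c, 11.7, 7.87 and 4.83 at Oblong, then 7.72, 1.57 and 0.273 at Sphere. In the mutant they held 1.39, 0.760 and 0.363 CPM at 256c, 1.20, 0.197 and 0.418 at 1024c, 0.171, 0.257 and 0.297 at Oblong, then 0.281, 0.0939 and 0.209 at Sphere. Groups did not overlap before Sphere, where wild type replicate 3 lay just below mutant replicate 1. The fitted differences were -3.71 (SE 0.87), -3.90 (SE 0.88), -5.00 (SE 0.92) and -3.95 (SE 0.87) in stage order on the log2 scale.

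cbr1l encodes a carbonyl reductase of the short-chain dehydrogenase family, enzymes that reduce aldehydes and ketones with NADPH. In wild type it stood at 5.13, 16.7 and 17.1 CPM at 256c, 2.75, 6.75 and 9.41 at 1024c, 6.41, 2.71 and 1.84 at Oblong, then 2.15, 1.21 and 0.774 at Sphere. Mutant values were 0.232, 0.380 and 0.544 CPM at 256c, 0.150, 0 and 0 at 1024c, 0.0857, 0.257 and 0.297 at Oblong, then 0.0561, 0.0939 and 0.167 at Sphere. All mutant libraries were below all wild type libraries at each stage, and replicate 1 was the lowest wild type library at 256c and 1024c but the highest at Oblong and Sphere. At 1024c the mutant held 1 count against 111, a 111-fold lower level with a 95% counting interval of 19.5 to 4419. The log2 fold changes were -5.00 (SE 0.80) at 256c, -4.00 (SE 0.76) at Oblong and -3.51 (SE 0.76) at Sphere.

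afmid encodes arylformamidase, which forms kynurenine in the breakdown of tryptophan. Wild type libraries gave 7.09, 2.94 and 5.44 CPM at 256c, 5.37, 2.95 and 4.60 at 1024c, 6.90, 3.36 and 3.60 at Oblong, then 2.47, 0.363 and 0.364 at Sphere. In the mutant the gene was at 0 counts in 8 of 12 libraries and reached at most 3 counts. Over the group the mutant held 1 count at 256c against 52 in wild type, a 94.7-fold lower level (95% counting interval 16.3 to 3812). At 1024c and Oblong it held 0 counts against 81 and 139, which is at least 27.0-fold and at least 53.6-fold lower, the floor being 3 counts over the group. At Sphere the mutant held 5 counts against 48, and the log2 fold change was -3.53 (SE 0.86). No mutant library reached a wild type library of its stage.

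cenpo encodes centromere protein O, part of the constitutive protein network on which the kinetochore is built. Its wild type level was steady between libraries at the first stages, at 4.15, 4.25 and 2.72 CPM at 256c and 3.44, 3.09 and 3.72 at 1024c, and spread at 5.32, 1.31 and 1.49 at Oblong, then 2.15, 0.444 and 0.182 at Sphere. The mutant had 0 counts in 8 of 12 libraries and 2 counts at most. Its 3 libraries summed to 1, 0, 3 and 1 counts from 256c to Sphere, against 37, 64, 77 and 42 in wild type. The level was 67.4-fold lower at 256c (95% counting interval 11.4 to 2733), at least 21.3-fold lower at 1024c, 29.7-fold lower at Oblong (9.78 to 147) and 44.7-fold lower at Sphere (7.59 to 1805). The groups did not overlap at any stage.

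adprhl2 encodes an ADP-ribosylserine hydrolase, which takes ADP-ribose off serine residues after DNA damage signalling. Wild type held 3.91, 3.59 and 4.27 CPM at 256c, 1.65, 2.53 and 1.09 at 1024c, 3.75, 1.23 and 1.93 at Oblong, then 2.31, 0.404 and 0.137 at Sphere. No mutant library had a count at 256c or 1024c, where wild type summed to 38 and 35 counts, so the mutant was at least 23.1-fold and at least 11.7-fold lower. At Oblong the mutant held 0.0857, 0.257 and 0.0742 CPM from 5 counts in all, a log2 fold change of -3.95 (SE 0.95). At Sphere it held 1 count against 42, 44.7-fold lower with a 95% counting interval of 7.59 to 1805. Groups were apart at all 4 stages.

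suclg2 encodes the GTP-specific subunit of succinate-CoA ligase, a citric acid cycle enzyme of mitochondria. Its wild type libraries gave 8.06, 6.53 and 2.33 CPM at 256c, 7.02, 6.32 and 3.06 at 1024c, 8.59, 2.54 and 4.30 at Oblong, then 4.53, 1.09 and 0.137 at Sphere. The mutant ones gave 0.464, 0.253 and 1.45 CPM at 256c, 0.150, 0.197 and 0.418 at 1024c, 0.429, 0.171 and 0.222 at Oblong, then 0.0561, 0.0939 and 0.251 at Sphere. Wild type replicate 3 was the lowest at 256c, 1024c and Sphere, and at Sphere it fell inside the mutant range. The fitted differences were -2.99 (SE 0.91), -4.34 (SE 1.00), -4.17 (SE 0.92) and -3.65 (SE 0.92) in stage order on the log2 scale.

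dhx30 encodes a DExH-box RNA helicase found in mitochondrial RNA granules, where mitochondrial ribosomes are assembled. Wild type libraries held 8.55, 10.1 and 13.2 CPM at 256c, 7.98, 6.75 and 3.50 at 1024c, 5.93, 3.69 and 6.85 at Oblong, then 4.22, 1.74 and 0.683 at Sphere. Mutant libraries held 0.696, 0.380 and 2.18 CPM at 256c, 0.749, 1.58 and 0.418 at 1024c, 0.257, 1.46 and 0.371 at Oblong, then 0.224, 0.282 and 0.0836 at Sphere, and none was at 0. The gene kept the most mutant counts of the 9, at 71 over 12 libraries, and its groups did not overlap at any stage. Its log2 fold changes were -3.30 (SE 0.78), -2.77 (SE 0.77), -2.97 (SE 0.75) and -3.41 (SE 0.79) in stage order.

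hpca encodes hippocalcin, a calcium-binding protein known from neurons. It was the sparsest of the 9 per kilobase of exon in wild type, at 0.868 CPM per kb at 256c against 1.90 to 8.05 for the others. Wild type libraries gave 2.44, 4.25 and 3.11 CPM at 256c, 2.06, 3.51 and 2.63 at 1024c, 4.60, 1.07 and 3.42 at Oblong, then 2.47, 0.444 and 0.638 at Sphere. The mutant was at 0 in 6 of 12 libraries. It summed to 4, 2, 7 and 3 counts by stage, against 31, 52, 90 and 56 in wild type. The level was 26.0-fold lower at 1024c (95% counting interval 6.84 to 220.2) and 19.8-fold lower at Sphere (6.45 to 99.1), and the log2 fold change was -3.90 (SE 1.10) at 256c and -3.88 (SE 1.00) at Oblong. No mutant library reached a wild type library of its stage.

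Across the 9 genes, the mutant was at 0 counts in 8 of 12 libraries for afmid, cenpo and adprhl2, in 6 for hpca, in 2 for cbr1l and in 1 for sars1. It was at 0 in none for hmgcrb, dhx30 and suclg2, and no wild type library was at 0 for any of the 9. Per kilobase of exon, mean wild type levels at 256c ran from 0.868 CPM per kb for hpca to 8.05 for cbr1l. Mean mutant levels at that stage ran from 0 for adprhl2 to 0.308 for dhx30. The plot of fitted genotype differences shows how these values line up by stage.

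**Figure D2:**
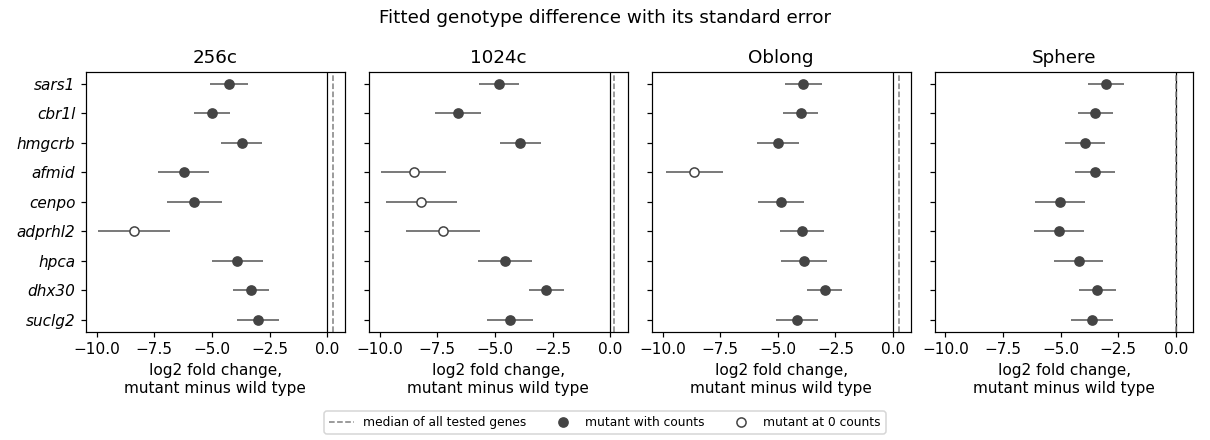
The fitted log2 fold change, mutant minus wild type, is on the x axis for each of the 9 genes (rows) at each stage (panels), with its standard error; the dashed line is the median of all tested genes. The highest of the points is dhx30 at 1024c, at -2.77, and open points, whose mutant group has 0 counts, depend on the prior count of the fit.

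The order of the 8 group means was alike across the 9 genes, and the rule fixed the order of the genotypes within each stage. For each of the 9, the 4 wild type groups ranked above the 4 mutant groups, wild type 256c was highest and wild type Sphere was the lowest wild type group. The 4 wild type means fell in the order of stages for 6 of the 9, and for afmid, adprhl2 and hpca Oblong ranked above 1024c. Neighbours in that order mostly overlapped in their library ranges. Wild type 256c lay clear of the next group for dhx30 alone, and wild type 1024c lay clear of wild type Sphere for afmid. Wild type Sphere lay clear of the mutant group with the highest mean for cbr1l, afmid, cenpo and hpca. For hpca the highest mutant library of any stage, at 0.507 CPM, still lay above the lowest wild type Sphere library, at 0.444.

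The authors' deposited table of comparisons labelled 8 of the 9 genes down-regulated at 256c, 9 at both 1024c and Oblong, and 3 at Sphere. In the authors' deposited table their log2 fold changes ran from -4.94 to -2.26 at 256c, from -5.77 to -2.16 at 1024c, from -7.70 to -2.14 at Oblong and from -2.94 to -1.75 at Sphere. In the authors' deposited table the 6 not labelled so at Sphere had adjusted p of 0.0147 to 0.0324, and suclg2 at 256c had 0.0173, all under the 0.05 used here, while those labelled down-regulated had at most 0.00997.

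Some genes of the lists for cell types, early zygotic regulators and maternal activators differed with genotype at 256c in these libraries. Of enveloping layer markers, 6 of 9 tested were higher in the mutant, as were 10 of 16 early zygotic regulators, 3 of 7 yolk syncytial layer markers and 1 of 7 maternal activators (edgeR, against 6.61% of tested genes higher). The summed enveloping layer level was 6.21 to 24.1 CPM in wild type, with 3 of 11 markers above 0 counts, and 34.3 to 542 CPM in the mutant with 8 of 11. The keratin genes krt4, krt5 and krt18a.1 and the claudin gene cldne were among those at 0 in wild type. The largest tested enveloping layer gene at 256c was grhl3, with 12.25 ± 9.92 CPM in wild type and 268 ± 237 in the mutant. It is on the early zygotic list too and was called higher, so those lists are not separate. Of the tested yolk syncytial genes mxtx2 was the largest, at 47.9 ± 32.4 and 384 ± 361 CPM. Summed early zygotic levels were 200.2 to 831 CPM in wild type and 468 to 6232 CPM in the mutant, yolk syncytial ones 26.1 to 94.0 and 149.7 to 1061 CPM, and maternal activator ones 92.9 to 152.7 and 159.9 to 650 CPM. Germ plasm markers had 39.2 to 68.4 against 55.5 to 74.0 CPM, and of these tdrd5 alone was called, lower at all 4 stages. At 1024c, Oblong and Sphere the summed ranges of all 5 lists overlapped between the genotypes. The enveloping layer gene krt8 was still called higher at 1024c, at 6.58 ± 2.03 CPM in wild type and 188 ± 282 in the mutant (log2 fold change 4.83, adjusted p = 0.00868, edgeR). Beside krt8 and tdrd5, no gene of these lists was called at the later stages. The part of these shifts in the levels of the 9 genes was not tested.

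The 9 genes lay on 6 chromosomes of GRCz11, and none lay on chromosome 4, where the mir430 array is. sars1 was at chr23:34030550-34043651 on the plus strand, cbr1l at chr21:21633213-21641194 on the minus strand and hmgcrb at chr21:2506013-2533249 on the plus strand. afmid was at chr11:45139300-45153006 and suclg2 at chr11:16738179-16975190, both on the minus strand. cenpo was at chr17:6528067-6536466 on the minus strand and adprhl2 at chr17:31611854-31619266 on the plus strand. hpca was at chr19:32622177-32710922 on the minus strand and dhx30 at chr2:212059-232977 on the plus strand. The pairs that shared a chromosome were far apart, at 28.2 Mb for suclg2 and afmid, 25.1 Mb for cenpo and adprhl2, and 19.1 Mb for hmgcrb and cbr1l. Genes spanned from 7.41 kb for adprhl2 to 237 kb for suclg2, with exonic lengths from 1611 to 3765 bases. All counts refer to exons as the authors' table annotates them.

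Overlapping annotation could share reads with 3 of the 9. The counts are labelled as proper orientation and filtered, but how strand and overlapping genes were treated in counting is not stated. afmid overlapped cant1b, a calcium-activated nucleotidase gene on the same strand, which held 237 counts in wild type and 279 in the mutant, and CR293511.2, with 0 and 2. cenpo overlapped slc5a6b, a sodium-dependent vitamin transporter gene on the opposite strand, with 516 and 545 counts. hpca overlapped CR318628.1, which had 0 counts in both. Neither cant1b nor slc5a6b was called at any stage, with log2 fold changes at 256c of 2.93 (adjusted p = 0.129, edgeR) and -0.17 (adjusted p = 0.956, edgeR).

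Genes near the 9 were not used to choose them, and their genotype differences were tested. Within 250 kb lay 94 tested genes. In the mutant, 17 of them were lower at 256c (18.1%, against 2.87% of all tested genes), 9 at 1024c (9.57%, against 1.57%), 6 at Oblong (6.38%, against 0.923%) and 1 at Sphere (1.06%, against 0.706%). Higher were 7 at 256c (7.45%, against 6.61%), 2 at 1024c (2.13%, against 1.83%), and 0 at Oblong and Sphere, against 0.774% and 0.394%. By edgeR's unadjusted p under 0.05, 6 and 2 were higher at Oblong and Sphere, and DESeq2 called 2 and 0. Over all genes 1156 and 550 of 14732 were higher by that unadjusted p, and DESeq2 called 303 and 128 of 29481. The median log2 fold change of the 94 was -0.34, -0.53, -0.25 and -0.13 from 256c to Sphere, against 0.25, 0.16, 0.24 and -0.01 over all tested genes. Replicate numbers were taken to pair the Oblong libraries, on correlations of 0.198, 0.190 and 0.112, each above a limit of 0.1. The genotypes at the other stages did not meet that limit, and the labels name no clutches. With a replicate block shared by all 8 groups nonetheless, 10 neighbours (10.6%) were lower and 2 higher at Oblong, against 1.64% of all tested genes lower.

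The count of 17 at 256c was 7 with total-count scaling, 6 with only the groups compared in the fit and 11 with no low-count filter, and 15 to 19 with RLE scaling, TMM on nuclear genes only, the replicate block and DESeq2. Over all tested genes the count lower at 256c was 423, and it was 185, 265 and 368 with the first 3 of these alternatives. Genes tested were 14732 in the main fit and with total counts, 5910 with only the groups compared and 29481 with no filter. The counts therefore have unlike totals. With no low-count filter 15 neighbours were lower at 1024c and 7 at Sphere.

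Other windows gave other shares. Of 38 tested genes within 100 kb, 7 were lower at 256c (18.4%) and 4 at 1024c (10.5%), and 0 at Oblong and Sphere, where 5 and 9 were lower by edgeR's unadjusted p under 0.05 and DESeq2 called 1 at each. Over all genes 846 and 989 of 14732 were lower by that unadjusted p, and DESeq2 called 251 and 162 of 29481. Of 147 tested genes between 250 kb and 1 Mb away, 5 were lower at 256c (3.4%) and 14 higher (9.52%). Neighbours share a region and are not independent of each other, so these shares have no test of their own. Leaving out single 256c libraries left 9, 10 and 9 lower neighbours without wild type replicates 1, 2 and 3 and 11, 7 and 8 without mutant replicates 1, 2 and 3, while all genes lower ranged from 227 to 303. At 1024c the count was 5 to 7 and at Oblong 1 to 4, with 1 without mutant Oblong replicate 1 or 2.

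**Figure D3:**
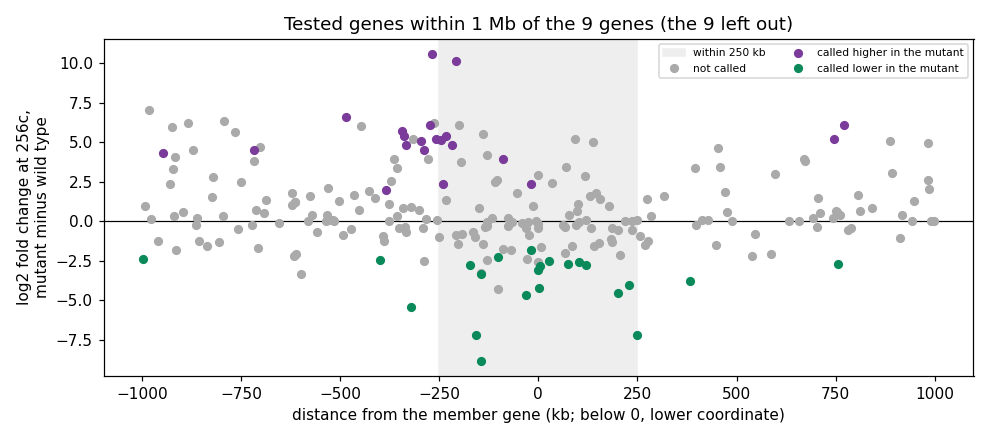
Each point is a tested gene within 1 Mb of 1 of the 9 genes, with its distance in kb on the x axis and its log2 fold change at 256c, mutant minus wild type, on the y axis; the 9 genes are left out and the band marks 250 kb. Green points, called lower, are 17 of 94 inside the band and 5 of 147 outside, and purple points, called higher, are 7 and 14.

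The lower neighbours were spread unevenly over the 9 loci. Of all 14732 tested genes, 483 other than mir430 were called lower at 1 or more stages. At adprhl2, 5 of 11 neighbours were called lower at 1 or more stages and none higher, at hmgcrb 4 of 12 lower and 4 higher, and at dhx30 4 of 16 lower and 1 higher. At afmid 2 of 20 were lower and 1 higher, at cenpo 2 of 9, at sars1 1 of 8 and at hpca 1 of 10 lower with none higher. At cbr1l 0 of 6 were lower and 1 was higher, and at suclg2 neither of 2 was called. Without the neighbours of adprhl2, 12 of 83 were lower at 256c (14.5%) and 5 at 1024c, and without those of hmgcrb 13 of 82 (15.9%) and 8, both choices made after seeing the data.

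Around adprhl2 the lower genes lay on both sides. The nearest, si:dkey-170l10.1, began 0.162 kb away on the opposite strand and had 1.88 ± 2.01 CPM in wild type and 0.222 ± 0.0371 in the mutant at 256c (log2 fold change -3.06, adjusted p = 0.031). At 1024c it held 37 counts in wild type and 2 in the mutant, and was called there too. On the other side at 2.52 kb lay cinp, which encodes an interactor of cyclin-dependent kinase 2, with 4.61 ± 1.20 CPM in wild type and 0.259 ± 0.273 in the mutant at 256c (log2 fold change -4.20, adjusted p = 0.0028). At 1024c it was again called, with 49 counts against 2. The RNA polymerase II associated protein gene rpap1 had 10.05 ± 2.79 CPM in wild type and 0.464 ± 0.804 in the mutant at 256c (log2 fold change -4.66, adjusted p = 0.0135) and the zinc finger gene znf839 11.1 ± 0.890 CPM in wild type and 1.52 ± 1.06 in the mutant at 256c (log2 fold change -2.86, adjusted p = 0.0114). The lysine methyltransferase gene eef1akmt2, 201 kb away, was lower at 3 stages, with 5.60 ± 2.02 CPM in wild type and 0.240 ± 0.118 in the mutant at 256c (log2 fold change -4.53, adjusted p = 0.000714). The calls of cinp and eef1akmt2 at 256c and 1024c held in 6 of 6 fits that left out 1 library, that of znf839 in 5, that of rpap1 in 4 at 256c and 1 at 1024c, and that of si:dkey-170l10.1 in 2 and 4. The Oblong call of eef1akmt2 held in 1 of 6.

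At hmgcrb the called genes, except CABZ01064472.1, lay on the side of lower coordinates, and most of them were clone-named. si:ch73-299h12.9 at 145 kb held 53 counts in wild type at 256c and 32 at 1024c and 0 in the mutant, with log2 fold changes of -8.82 (adjusted p = 0.000735, edgeR) and -7.13 (adjusted p = 0.00515, edgeR) that depend on the prior count. si:ch73-299h12.8 was lower at 256c, Oblong and Sphere, where it was the single neighbour called. Its calls at these stages held in 6, 2 and 3 of 6 fits that left out 1 library. si:ch73-299h12.2, si:ch73-299h12.3, si:ch73-299h12.4 and si:ch73-299h12.6, between 207 and 244 kb away, were higher at 256c by fitted log2 fold changes of 4.85 to 10.1, the last of them for si:ch73-299h12.6 against 0 wild type counts. Reads of such runs of clone-named genes could be split among copies, which was not tested. zgc:113348 had 1.56 ± 0.632 CPM in wild type and 0.205 ± 0.186 in the mutant at 256c (log2 fold change -2.75, adjusted p = 0.0301), and CABZ01064472.1, the nearest tested gene above hmgcrb at 248 kb, held 17 counts in wild type and 0 in the mutant at 256c. Both of these calls were lost in 6 of 6 fits that left out 1 library, with adjusted p up to 0.242 and 0.0958 over the alternatives.

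Near dhx30 the lower genes at 256c were phlpp1, which encodes a protein phosphatase, with 5.21 ± 0.560 CPM in wild type and 0.952 ± 0.592 in the mutant at 256c (log2 fold change -2.50, adjusted p = 0.0344), sharpin, which encodes a ubiquitin ligase subunit, with 5.62 ± 3.06 CPM in wild type and 0.790 ± 0.742 in the mutant at 256c (log2 fold change -2.78, adjusted p = 0.0294), znf1014 with 3.55 ± 0.675 CPM in wild type and 1.02 ± 0.568 in the mutant at 256c (log2 fold change -1.80, adjusted p = 0.0385) and zgc:113452 with 4.78 ± 0.840 CPM in wild type and 0.740 ± 0.509 in the mutant at 256c (log2 fold change -2.72, adjusted p = 0.0372). The zinc finger gene znfl2a was higher, with 0.490 ± 0.490 CPM in wild type and 7.85 ± 7.98 in the mutant at 256c (log2 fold change 3.93, adjusted p = 0.0259). The nearest gene, zgc:113293 at 0.995 kb, was not called at any stage, with log2 fold changes of -2.55, -2.89, -2.89 and -4.93 (adjusted p = 0.0737 at the lowest, edgeR). Near cenpo, afg1la, a mitochondrial ATPase gene 229 kb away, was lower at 3 stages, with 8.13 ± 4.49 CPM in wild type and 0.487 ± 0.137 in the mutant at 256c (log2 fold change -4.01, adjusted p = 0.00486), and txlnbb had 2.54 ± 1.50 CPM in wild type and 0.240 ± 0.118 in the mutant at 256c (log2 fold change -3.36, adjusted p = 0.0212). The call of afg1la at 256c held in 6 of 6 fits that left out 1 library, that of txlnbb in 3, those of sharpin and znfl2a in 2, those of phlpp1 and znf1014 in 1 and that of zgc:113452 in 0. For afg1la the calls at 1024c and Oblong held in 6 and 4.

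At the other loci few neighbours were called. cs, the citrate synthase gene 102 kb from sars1, had 4.61 ± 1.13 CPM in wild type and 0.958 ± 0.634 in the mutant at 256c (log2 fold change -2.28, adjusted p = 0.0181). aspscr1, 103 kb from afmid, had 9.01 ± 2.77 CPM in wild type and 1.44 ± 1.54 in the mutant at 256c (log2 fold change -2.56, adjusted p = 0.0249) and was also lower at 1024c, ldb1b, which encodes a LIM-domain binding protein, was lower at 1024c, and eif4a3, a subunit of the exon junction complex, was higher at 256c with 2.92 ± 0.600 CPM in wild type and 15.2 ± 11.7 in the mutant at 256c (log2 fold change 2.38, adjusted p = 0.0397). laptm4b, a lysosomal membrane protein gene 154 kb from hpca, was lower at Oblong, and b9d2, a ciliary gene 17.6 kb from cbr1l, was higher at 256c with 1.05 ± 0.578 CPM in wild type and 5.74 ± 1.63 in the mutant at 256c (log2 fold change 2.39, adjusted p = 0.0266). Leaving out 1 library kept cs, aspscr1 and eif4a3 at 256c in 2 of 6 fits, b9d2 in 1, aspscr1 and ldb1b at 1024c in 1 and laptm4b in 0. The thymidine kinase gene tk1, whose start lies 0.098 kb from afmid on the opposite strand, was not called at any stage (adjusted p = 0.358 at the lowest, edgeR).

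Genes that share a pathway or family with the 9 were tested in 10 lists with 122 tested genes besides the 9. At 256c 3 were lower in the mutant (2.46%) and 4 higher (3.28%), against 2.87% and 6.61% of all tested genes. At 1024c, Oblong and Sphere edgeR called 0, with 15, 11 and 13 at an unadjusted p under 0.05, and DESeq2 called 7, 5 and 0. Of all 14732 tested genes, 918, 846 and 989 were lower and 1634, 1156 and 550 higher at an unadjusted p under 0.05. Over 29481 genes fitted, DESeq2 called 396, 251 and 162 lower and 484, 303 and 128 higher. With the replicate block 4 related genes were called at Oblong, where numbers were taken to pair the libraries. The median log2 fold change of the 122 genes was 0.04, 0.01, 0.14 and -0.12, near the medians of all tested genes.

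Among 19 other cytosolic aminoacyl-tRNA synthetases, the isoleucyl gene iars1 was lower at 256c, with 5.57 ± 1.42 CPM in wild type and 0.565 ± 0.140 in the mutant at 256c (log2 fold change -3.26, adjusted p = 0.00294), and the histidyl gene hars was higher, with 1.82 ± 1.45 CPM in wild type and 7.61 ± 1.13 in the mutant at 256c (log2 fold change 2.11, adjusted p = 0.0289). Among 23 other sterol genes, insig1, which encodes a sterol sensor of the endoplasmic reticulum, was higher at 256c with 0.797 ± 0.487 CPM in wild type and 10.7 ± 12.1 in the mutant at 256c (log2 fold change 3.80, adjusted p = 0.0325), and none was lower. Of 15 other citric acid cycle genes, cs was lower and the fumarate hydratase gene fh higher, with 0.0815 ± 0.141 CPM in wild type and 2.64 ± 0.933 in the mutant at 256c (log2 fold change 4.55, adjusted p = 0.00887). Of 3 other tested genes of the kynurenine pathway, the aminotransferase gene kyat3 was lower, with 2.57 ± 2.02 CPM in wild type and 0.240 ± 0.118 in the mutant at 256c (log2 fold change -3.37, adjusted p = 0.0274). The splicing helicase gene dhx15 was higher among 14 other DEAH-box genes, with 1.05 ± 0.578 CPM in wild type and 17.3 ± 5.84 in the mutant at 256c (log2 fold change 3.98, adjusted p = 0.00121). None was called at 256c among 12 centromere proteins, 7 genes that remove ADP-ribose or add it, 10 carbonyl reductases and relatives, 3 neuronal calcium sensors and 17 genes of the mitochondrial RNA granule. The calls of iars1 and dhx15 held in 6 of 6 fits that left out 1 library, that of fh in 5, those of hars, insig1 and cs in 2 and that of kyat3 in 1.

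Of 8 close relatives of the 9 genes, 4 were tested and none was called at any stage. cbr1, the carbonyl reductase beside cbr1l in the family, had 7.08 ± 3.29 CPM in wild type and 3.67 ± 2.62 in the mutant at 256c, with log2 fold changes of -0.92, -1.03, -0.92 and -1.88 from 256c to Sphere (adjusted p = 0.423 at the lowest, edgeR). hpcal1, the hippocalcin-like gene, stood at 12.8 ± 1.43 and 6.63 ± 0.502 CPM at 256c, with log2 fold changes between -0.97 and -0.26. sucla2, the ATP-specific counterpart of suclg2, had 8.87 ± 4.40 and 9.30 ± 6.98 CPM there, with differences between -0.20 and 0.46. The mitochondrial seryl-tRNA synthetase gene sars2 had 0.238 ± 0.209 and 0.180 ± 0.0527 CPM, with differences between -0.29 and 2.86 (adjusted p = 0.165 at the lowest, edgeR). hmgcra, suclg1, hpcal4 and adprh had too few counts to be tested.

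The 4 other genes called lower at every stage were ttc39c, tdrd5, CU467646.8 and CR936462.1. ttc39c and tdrd5, a tudor domain gene of germ cells, lay 0.884 Mb apart on chromosome 22, CU467646.8 lay on chromosome 4 and CR936462.1 on chromosome 5. ttc39c stood at 7.97 ± 1.67 CPM in wild type and 0.324 ± 0.281 in the mutant at 256c, a log2 fold change of -4.54 (SE 1.07), and tdrd5 stood at 2.65 ± 0.329 and 0.384 ± 0.177 CPM, a difference of -2.73 (SE 0.76). From 256c to Sphere, the calls of tdrd5 held in 1, 3, 2 and 2 of 6 fits that left out 1 library. Those of ttc39c held in 5, 3, 1 and 3. For CU467646.8 they held in 3, 2, 1 and 2, and for CR936462.1 in 6, 6, 6 and 2. A further 35 genes other than mir430 were lower at exactly 3 stages. Like the 9, these genes were picked by the same contrasts, so their values are a description.

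By Pearson's r of the 8 group means of log2 CPM with the mean standardised profile of the 9 genes, the most alike of 6426 candidates were ttc39c (r = 0.99), ccdc22 (0.99), usp48 (0.99), fam210b (0.99) and pkma (0.99). Over the same 8 groups each of the 9 genes had r between 0.977 and 0.995 with that mean profile, of which it is itself a part. The points share the 24 libraries and their scaling. The rule set the genotypes apart in these groups, so a high r among the 9 was largely fixed in advance. The genes named as most alike also had negative log2 fold changes in the mutant at every stage. ccdc22 was called lower at 1 stage, fam210b at 2, usp48 and pkma at 3 and ttc39c at 4. Their means went from 7.61 to 8.89 CPM in wild type at 256c to 1.28 to 4.03 CPM at wild type Sphere, and stood at 0.324 to 1.70 CPM in the mutant at 256c.

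The wild type course was a contrast that the rule did not use, though it shares the wild type libraries with it. The rule needed wild type above the mutant at 256c and at Sphere, both ends of this course. The wild type values compared here thus helped to choose the 9, and the p-values below are not independent of that choice. How far this favoured falls was not tested. From 256c to Sphere 6 of the 9 genes fell, where 16.2% of all tested genes fell and 30.7% rose, and none of the 9 rose. The largest fall was that of cbr1l, from 12.96 ± 6.78 to 1.38 ± 0.702 CPM, a log2 difference of -3.23 (SE 0.68, adjusted p = 0.000948, edgeR). sars1 fell from 12.2 ± 2.60 to 2.30 ± 2.47 CPM, a log2 difference of -2.43 (SE 0.71, adjusted p = 0.0094, edgeR). afmid fell from 5.16 ± 2.09 to 1.06 ± 1.21 CPM and dhx30 from 10.6 ± 2.37 to 2.21 ± 1.81, by 2.33 and 2.28 on the log2 scale (adjusted p = 0.0162 and 0.0132). cenpo and adprhl2 were at the edge of the threshold, at -2.06 (SE 0.81, adjusted p = 0.0415) and -2.10 (SE 0.82, adjusted p = 0.0406). hmgcrb, suclg2 and hpca did not pass, with -1.79 (SE 0.76, adjusted p = 0.0536), -1.60 (SE 0.80, adjusted p = 0.0953) and -1.49 (SE 0.88, adjusted p = 0.152).

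The median of the 9 was -2.10 against 0.75 over all tested genes. With total-count scaling, which keeps the mitochondrial counts in the denominator, the median of the 9 turned to 0.27, none of the 9 was called, and the median of all tested genes was 3.50. Relative to all tested genes the 9 were lower under all 4 scalings, by 2.84 with TMM, 3.05 with RLE, 3.23 with total counts and 2.04 with TMM on nuclear genes only. A change of scale alone shifts every gene by much the same amount, so this gap is no separate check of the fall, though its size varied. The nuclear TMM setting also tested other genes, 13168 in place of 14732. The raw counts of the 9 summed to 663 at 256c and 710 at Sphere, while nuclear genes grew from 1.22% to 2.67% of counts at 256c to 12.9% to 62.6% at Sphere. As a share of nuclear counts the 9 went from 0.113% to 0.137% in the wild type 256c libraries to 0.00202% to 0.0452% in the Sphere ones.

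Single libraries moved these calls. Without wild type 256c replicates 1, 2 and 3, 3, 4 and 4 of the 9 genes fell. Without Sphere replicate 1, which had the lowest nuclear share and a summed level of 33.1 CPM over the 9 genes, all 9 fell. Without Sphere replicate 2 or 3, whose sums were 8.68 and 3.60 CPM, 1 fell. Of single genes, cbr1l was called in 6 of 6 such fits, sars1 and dhx30 in 4, afmid in 3 and each of the other 5 in 1.

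**Figure D4:**
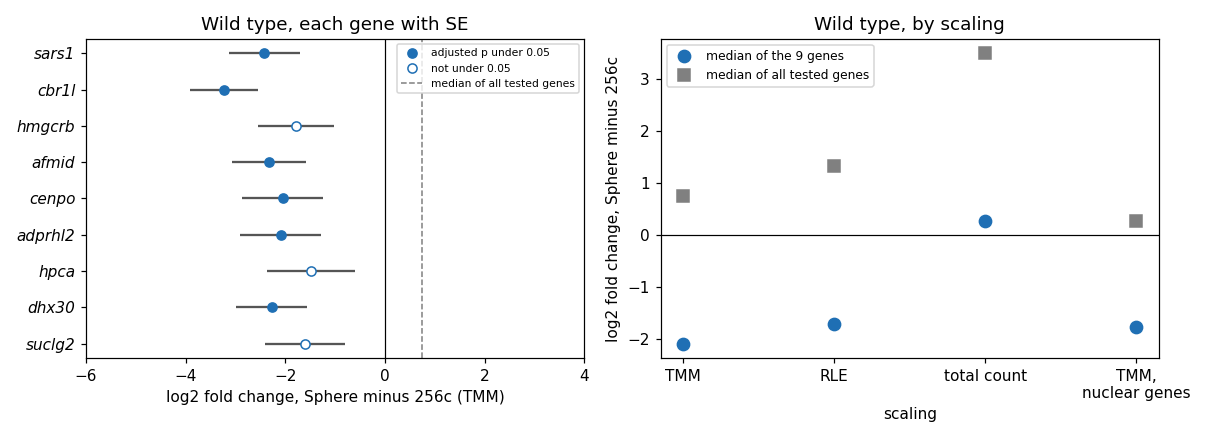
The left panel gives each gene's log2 fold change in wild type, Sphere minus 256c, with its standard error under TMM; filled points passed an adjusted p of 0.05 and the dashed line is the median of all tested genes, 0.75. The right panel gives the median of the 9 genes and of all tested genes under 4 scalings. The 9 lie below all genes under each, but a change of scale alone moves both medians much alike, so the gap is no separate check. Their median is -2.10 with TMM and 0.27, above 0, with total counts.

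None of the 9 genes was called in a single wild type step. From 256c to 1024c their log2 fold changes ran from -1.14 to -0.05 with a median of -0.27, while edgeR called 492 genes higher (3.34%) and 1 lower (0.00679%). The replicate block, whose numbers were taken to pair these libraries, called 836 higher and 9 lower. From 1024c to Oblong they ran from -0.81 to 0.36, and from Oblong to Sphere from -2.16 to -1.25 with 9 of 9 negative. In those 2 steps edgeR called 0 genes of all tested, with 810 and 2057 at an unadjusted p under 0.05, and DESeq2 called 0 in the former and 276 higher and 54 lower in the latter. The lowest single step was that of afmid from Oblong to Sphere, from 4.62 ± 1.98 to 1.06 ± 1.21 CPM, a log2 difference of -2.16 (SE 0.72, adjusted p = 0.351, edgeR). Without wild type Sphere replicate 1, 6 calls among the 9 genes appeared over the 3 steps.

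The rule also used the mutant libraries at 256c and Sphere, so the p-values of the mutant course are not independent of that choice. In the mutant, 1 of the 9 genes fell from 256c to Sphere, where 22.4% of tested genes fell and 26.8% rose. This was dhx30, from 1.08 ± 0.958 to 0.197 ± 0.102 CPM, a log2 difference of -2.39 (SE 0.83, adjusted p = 0.0209, edgeR). Its mutant libraries held 0.696, 0.380 and 2.18 CPM at 256c and 0.224, 0.282 and 0.0836 at Sphere, so replicate 3 was the highest at the first and the lowest at the last. The call held in 4 of 6 fits that left out 1 library, and the change was 0.015 with total-count scaling. hmgcrb and suclg2 had -2.02 (SE 0.93, adjusted p = 0.0717) and -2.26 (SE 0.99, adjusted p = 0.0596). For afmid, cenpo, adprhl2 and hpca the mutant sums of 0 to 7 counts per stage could not show a course at this depth. None of the 9 was called in a single mutant step, where edgeR called 0 genes of all tested in each, with 867, 1403 and 2413 at an unadjusted p under 0.05, and DESeq2 called 19, 1 and 234 higher and 0, 0 and 100 lower.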

How the data were processed

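RNA pulled out as newly made was sequenced from whole zebrafish embryos of 2 genotypes at 4 stages. The authors deposited raw read counts per gene with the exonic length, the position in base pairs and the chromosome of each gene, and tables of log2 fold changes, standard errors and adjusted p-values of their own comparisons, per the file headers. The submitters' processing notes name Trimmomatic, HISAT, SAMtools, Picard, featureCounts and DESeq2 and the build GRCz11, with no role or version. The counts are labelled as proper orientation and filtered, but how strand and overlapping genes were treated in counting is not stated.

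Each IAA library was 1 replicate of its group, 3 in each of 8 groups, and no pair of replicates agreed within sampling noise. Counts were fitted with edgeR 4.0.16 (R 4.3.3, limma 3.58.1): filterByExpr left 14732 of 32520 genes, TMM set the scale, and 8 group means shared 1 quasi-likelihood fit. Each genotype difference and each stage difference was a contrast of that fit, with p-values adjusted by Benjamini-Hochberg over all genes tested, and a call was an adjusted p under 0.05. CPM are counts divided by the TMM-scaled library size. Intervals of ratios are 95% exact binomial (Clopper-Pearson) intervals of the summed counts. They and the floor of 3 counts over a group cover counting error only, since reads without molecular identifiers are not independent molecules. After the main fit, the same procedure was run on simulated data drawn from it, with changes planted only in genes above a limit of expected counts.

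Genes named were the 9, the other genes lower at every stage, the nearest tested gene on each side and the called genes within 250 kb. Also named were up to 2 risen and 2 fallen genes per related list, with 8 close relatives. The last were the 5 genes with the most alike profile among those with at least 5 CPM in 1 group. The nearest genes that were not called are given by example. The members and lists were chosen with earlier results of these data known.

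Alternatives were DESeq2 1.42.0, RLE, total-count and nuclear TMM scaling, no filter, only the groups compared, the replicate block, each library left out and other windows. The replicate numbers of the labels were taken to pair libraries where the deviations of every same-numbered pair correlated above 0.1: this held for the genotypes at Oblong (0.198, 0.190 and 0.112), for wild type 256c and 1024c (0.277, 0.193 and 0.173), and for Oblong and Sphere in wild type (0.780, 0.671 and 0.468) and in the mutant (0.511, 0.513 and 0.670), and for no other groups compared. The libraries without IAA entered no fit.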

Additional observations from a re-analysis of the deposited data

Results flagged for a closer look

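The 4 wild type libraries without IAA, 1 per stage, entered no comparison. As a sum over the 4, all 9 genes had counts above the limit of 3 that a count of 0 allows. In single libraries adprhl2 did not pass that limit at Oblong, with 2 counts, or at Sphere, with 3. Summed over these 4 libraries the counts were 41 for sars1, 73 for cbr1l, 71 for hmgcrb, 63 for afmid, 60 for cenpo, 30 for adprhl2, 37 for hpca, 58 for dhx30 and 38 for suclg2. The libraries held 1105928, 805124, 143490 and 786123 counts from 256c to Sphere, of which the 9 genes took 140, 194, 47 and 90. sars1, hpca and suclg2 were at 0 in the Oblong library, the smallest of the 4, and each of the other 6 genes had counts in all 4. As a share of nuclear counts the 9 genes made up 0.135%, 0.132%, 0.0358% and 0.0141% in the same order. With 1 library per stage and no mutant library without IAA, these values have no replicate and no test.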

How the results depend on the processing

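Depth limits single genes to a few counts per mutant library, and the wild type Sphere libraries differ in their nuclear share, so the values that moved were mainly counts of calls. The cause of each change below was not tested, except that fewer genes could be tested with only the groups compared and within 100 kb. With total-count scaling no gene of the 9 fell in wild type (median 0.27) or in the mutant (median 0.37), and hmgcrb (0.43), cenpo (0.37), adprhl2 (0.27), hpca (1.11), dhx30 (0.21) and suclg2 (0.74) changed sign in wild type and dhx30 (0.015) in the mutant. The median of the 9 at 256c was then -3.61, 2 of them were lower at Sphere and at every stage, 7 neighbours were lower at 256c and 0 at Sphere, 1 related gene was lower and 7 were higher at 256c, all genes lower at 256c were 185, and genes other than mir430 lower at every stage were 2. With RLE scaling 5 of the 9 were lower at Sphere and at every stage, 0 fell in the mutant, 0 neighbours were lower at Sphere and 2 related genes were called at the later stages. With nuclear TMM 5 of the 9 were lower at Sphere and at every stage, and 2 related genes were called at the later stages.

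DESeq2 called 0 of the 9 falling in the mutant, 6 related genes lower at 256c and 12 related genes at the later stages. It called 2 neighbours lower at Sphere and 5 higher at the later stages. Over all 29481 genes fitted it called 396 lower at 1024c, 251 at Oblong and 162 at Sphere, and 20 other than mir430 at every stage. With no filter 3 of the 9 fell in wild type, and 11, 15 and 7 neighbours were lower at 256c, 1024c and Sphere and 6 higher at the later stages. Of related genes 7 were higher at 256c and 2 called later. Of 29481 genes then tested, 259 were lower at Oblong and 285 at Sphere, and 31 other than mir430 were lower at every stage. With only the groups compared 3 of the 9 fell in wild type and 0 in the mutant, 4 were lower at 256c and 0 at Sphere and at every stage. Neighbours lower were then 6 at 256c and 0 at Sphere, and related genes called later were 3. All genes lower were 265 of 5910 tested at 256c, 126 of 8381 at 1024c and 42 of 12219 at Sphere. Of genes other than mir430, 0 were lower at every stage.

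With the replicate block 8 of the 9 fell in wild type and 3 in the mutant, 5 related genes were lower at 256c and 9 called later, 10 neighbours were lower at Oblong and 2 at Sphere, 5 were higher later, all genes lower were 242 at Oblong and 167 at Sphere, and 21 other than mir430 were lower at every stage; at the numbers that only share a label this is not a sign of pairing. Within 100 kb 7 neighbours were lower and 2 higher at 256c, 4 lower at 1024c, 0 lower at Oblong and at Sphere and 0 higher later. Within 1 Mb 21 were higher at 256c and 8 later. Chosen after seeing the data, the count without the neighbours of hmgcrb had 3 higher at 256c, 0 higher later and 0 lower at Sphere, and that without the neighbours of adprhl2 had 5 lower at 1024c.

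Leaving out 1 library at a time, 1 to 9 of the 9 fell in wild type (median -3.46 to -1.26), 0 to 6 calls came over the wild type steps, and 0 to 2 fell in the mutant (median -1.98 to -1.34). Of the 9, 7 to 8 were lower at 256c (median -4.96 to -4.08), 5 to 8 at 1024c (-7.48 to -4.54), 3 to 8 at Oblong (-4.36 to -3.52), 0 to 9 at Sphere (-4.36 to -2.60) and 0 to 9 at every stage. Neighbours lower were 7 to 11, 5 to 7, 1 to 4 and 0 to 3 by stage, and higher 3 to 7 at 256c and 0 to 4 later. Related genes were 1 to 2 lower and 1 to 5 higher at 256c and 0 to 3 later. All genes lower were 227 to 303, 108 to 162, 57 to 99 and 51 to 216 by stage, and those other than mir430 lower at every stage 0 to 23. Of the values of single genes under all alternatives, 656 kept their direction and side of the threshold, 266 lost the call, 5 gained it and 7 changed sign.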
